A study of Saccharomyces cerevisiae with 8 samples.

Results

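Ty elements are the retrotransposons of budding yeast. The members described here were the features that the R64 annotation types as a mobile genetic element or as a long terminal repeat (LTR) on the 16 nuclear chromosomes, with each LTR that lies in a full element, or shares its end, counted with that element. These were 336 members out of 434 annotated features. There were 50 full elements, of which 31 were Ty1, 13 Ty2, 2 Ty3, 3 Ty4 and 1 Ty5, and 286 LTRs that stand alone (solo LTRs). Of the 384 LTR features, 96 lay inside an element and 2 shared the ends of YNLCTy2-1 and were joined to it. By family the solo LTRs were 203 Ty1, 10 Ty2, 38 Ty3, 29 Ty4 and 6 Ty5.

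The study examined how RNA polymerase II (RNAPII) occupies chromatin when the general transcription factor TFIIF cannot be modified normally by the small protein SUMO. All strains were W303a budding yeast, were collected in mid-log phase from cultures in SC medium kept at 30 °C, and carried an HA epitope tag on Tfg1, the large subunit of TFIIF. One strain had the normal Tfg1 sequence (Tfg1-HA). In the other, named Tfg1-K60,61R-HA, arginine took the place of lysines 60 and 61, the major site of SUMO attachment on Tfg1. By the study's account this greatly lowers SUMO on Tfg1 without removing all of it. The second strain also carries, by the study's account, an unintended missense change elsewhere in Tfg1, so the lysines and that change cannot be told apart here. Cross-linked chromatin was immunoprecipitated with the 8WG16 antibody, which recognises the large RNAPII subunit Rpb1. Each strain gave 2 immunoprecipitated libraries and 2 input libraries, and the authors called 1 list of broad peaks for each immunoprecipitated library, 4 lists in all. In bulk chromatin, fewer cells with RNAPII on an element and less RNAPII per cell cannot be told apart.

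A doubt about the labels precedes every comparison. The list labelled Tfg1-K60,61R-HA replicate 1 names its peaks with the gene in upper case, as the list labelled Tfg1-HA replicate 1 does, while the list labelled Tfg1-HA replicate 2 uses lower case, as Tfg1-K60,61R-HA replicate 2 does. If upper case stood for Tfg1-HA and lower case for Tfg1-K60,61R-HA, replicate 2 of the former and replicate 1 of the latter would hold each other's label. The peak lists by themselves do not settle this. Labels were kept, values are given for each list, and the group results are also given with lists left out and with these labels exchanged. The lists held 1257 peaks for Tfg1-HA replicate 1, 1171 for Tfg1-HA replicate 2, 1098 for Tfg1-K60,61R-HA replicate 1 after removal of 894 rows that repeated another list, and 894 for Tfg1-K60,61R-HA replicate 2. They covered 18.0%, 15.5%, 15.7% and 11.0% of the nuclear genome in that order. The study states a nominal number of reads per sample. The lists hold no read counts, so the depth that each library reached is unknown.

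A full Ty element has 2 LTRs in the same orientation around an internal region that encodes a capsid protein and a polyprotein with protease, integrase and reverse transcriptase. RNAPII starts transcription in the 5′ LTR and ends it in the 3′ LTR, and the RNA serves both as message and as the template that is copied into new DNA. Recombination between the LTRs of an element removes its internal region and leaves a solo LTR. Ty1, Ty2, Ty4 and Ty5 belong to the copia group of retrotransposons and Ty3 to the gypsy group. Ty1 RNA is among the abundant RNAs of growing haploid yeast, Ty1 and Ty3 insert next to genes transcribed by RNA polymerase III such as tRNA genes, and Ty5 inserts into silent chromatin.

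Printed here are the LTRs on which the contrasts below turn, 5′ to 3′ on the strand of the LTR, up to the first 300 bases, with every TATAAA, or TTTATA where it lies on the other strand, in capitals. They were read from the R64 genome. The first is the 5′ LTR of YNLCTy2-1 (chrXIV:567693-567992, minus strand), the element under peaks from end to end in all 4 lists. The second is that of YBLWTy1-1 (chrII:221037-221336, plus strand), a Ty1 element under peaks from end to end in 3 lists. YGRWTy3-1 (chrVII:707195-707494, plus strand) and YJLWTy4-1 (chrX:197545-197844, plus strand) stand for the families whose full elements had no peak. The last are a solo Ty3 LTR (chrXIV:546738-547037, plus strand) and a solo Ty1 LTR (chrIV:668543-668784, plus strand) that lay under peaks in all 4 lists.
YNLCTy2-1: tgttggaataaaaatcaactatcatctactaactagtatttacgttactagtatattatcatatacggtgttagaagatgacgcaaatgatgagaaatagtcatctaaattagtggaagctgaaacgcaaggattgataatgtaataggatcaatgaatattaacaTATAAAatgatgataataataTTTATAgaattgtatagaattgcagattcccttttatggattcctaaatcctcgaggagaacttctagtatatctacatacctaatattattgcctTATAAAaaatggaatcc
YBLWTy1-1: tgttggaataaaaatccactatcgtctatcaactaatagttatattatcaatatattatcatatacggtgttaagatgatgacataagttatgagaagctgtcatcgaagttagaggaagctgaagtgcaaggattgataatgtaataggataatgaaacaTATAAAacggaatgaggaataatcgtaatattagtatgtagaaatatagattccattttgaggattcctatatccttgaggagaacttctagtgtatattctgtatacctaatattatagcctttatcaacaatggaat
YGRWTy3-1: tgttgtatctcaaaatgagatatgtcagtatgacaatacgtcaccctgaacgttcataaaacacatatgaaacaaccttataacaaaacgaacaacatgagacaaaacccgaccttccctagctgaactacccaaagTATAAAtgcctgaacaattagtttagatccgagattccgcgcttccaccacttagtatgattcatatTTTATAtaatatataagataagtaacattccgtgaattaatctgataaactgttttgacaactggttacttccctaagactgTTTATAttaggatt
YJLWTy4-1: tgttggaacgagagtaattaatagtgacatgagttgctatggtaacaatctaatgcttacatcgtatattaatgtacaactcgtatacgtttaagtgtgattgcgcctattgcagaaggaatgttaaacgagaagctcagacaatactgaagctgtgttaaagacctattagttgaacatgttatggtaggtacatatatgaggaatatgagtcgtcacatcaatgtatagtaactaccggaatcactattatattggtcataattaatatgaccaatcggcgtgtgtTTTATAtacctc
Solo Ty3 LTR of chromosome XIV: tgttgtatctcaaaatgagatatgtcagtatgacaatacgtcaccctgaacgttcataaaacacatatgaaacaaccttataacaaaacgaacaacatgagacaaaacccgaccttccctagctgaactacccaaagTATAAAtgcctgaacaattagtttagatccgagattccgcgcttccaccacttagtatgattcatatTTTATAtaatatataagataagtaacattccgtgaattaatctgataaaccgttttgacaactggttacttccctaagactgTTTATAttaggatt
Solo Ty1 LTR of chromosome IV: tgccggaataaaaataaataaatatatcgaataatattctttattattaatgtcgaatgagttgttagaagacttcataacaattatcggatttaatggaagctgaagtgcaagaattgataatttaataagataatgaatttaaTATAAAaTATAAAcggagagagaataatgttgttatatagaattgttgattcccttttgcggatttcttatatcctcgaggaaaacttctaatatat

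The 5′ LTRs of the 4 elements begin with the same 5 bases, tgttg. The LTRs of YNLCTy2-1 and YBLWTy1-1 were alike over 79.6% of 343 aligned columns, and YBLWTy1-1 and YGRWTy3-1 over 50.6% of 401. The solo Ty3 LTR and the LTR of YGRWTy3-1 had 339 identical bases out of 340. The solo Ty1 LTR of chromosome IV was 55.4% identical to the LTR of YBLWTy1-1. Across the families, TATAAA (either strand) occurred in the first 300 bases of all 31 Ty1, 13 Ty2, 2 Ty3 and 3 Ty4 elements, against 29.2% of all windows of 300 bp in the genome. A match to these letters is a description and does not mark a working promoter. In those first 300 bases, the site of the factor Tec1, CATTCC (either strand), occurred in 21 of 31 Ty1 and 0 of 13 Ty2 elements. It occurred there in all 2 Ty3 and 3 Ty4 elements, with 12.9% of windows as the background. Its variant CATTCT was in those bases of 0 Ty1, 1 Ty2, 0 Ty3 and 0 Ty4 elements, against 20.5% of windows. The pheromone response element TGAAACA, bound by Ste12, was in those of 8 Ty1, 0 Ty2, 2 Ty3 and 0 Ty4 elements, against 7.89%. The rest of each element was not searched for these letters. No motif searched contains another.

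Near-identical copies limit what short reads can assign. A stretch of 100 bases was called unique when it occurs once in the genome on either strand, and 95.0% of such stretches in the nuclear genome were unique. In Ty1 elements the median was 1.98% and the range 0% to 22.4%, and in Ty2 elements the median was 7.97% and the range 0% to 30.2%. The Ty3 elements stood at 49.4% and 50.1%, the Ty4 elements between 3.20% and 39.8%, and the Ty5 element at 100%. Of the 286 solo LTRs, 269 were long enough to hold such a stretch and 220 of these were unique over at least 50% of them. Over stretches of 250 bases more was unique, with medians of 7.32% in Ty1, 26.3% in Ty2, 82.1% in Ty3 and 12.7% in Ty4 elements. The study sequenced its fragments from both ends, and the span of a read pair was not used here. Bowtie2 by default places a read that fits several sites equally well at 1 of them, and whether the authors changed that setting is not given in the sources used here. Values for a single Ty1 or Ty2 copy therefore share reads with other copies. The reference strain of R64 is also not W303a, and which of these insertions W303a holds was not examined.

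The first comparison asked which families lay under RNAPII peaks. All 44 Ty1 and Ty2 elements had at least 1 bp under a peak (touched) in 3 of the lists, and none of the 6 Ty3, Ty4 and Ty5 elements did in any list. Elements touched numbered 44 of 50 in Tfg1-HA replicate 1, 44 in Tfg1-HA replicate 2, 44 in Tfg1-K60,61R-HA replicate 1 and 23 in Tfg1-K60,61R-HA replicate 2, or 88%, 88%, 88% and 46%. Of windows of 6000 bp tiled over the genome, about the length of an element, 62.0%, 56.2%, 56.6% and 45.7% were touched in the same order. The share of elements touched in Tfg1-K60,61R-HA replicate 2 was thus near its background, and the shares in the other lists were above theirs.

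Elements with at least 50% of their length under peaks (occupied) numbered 31 in Tfg1-HA replicate 1, 23 in Tfg1-HA replicate 2, 42 in Tfg1-K60,61R-HA replicate 1 and 5 in Tfg1-K60,61R-HA replicate 2. Those counts are 62%, 46%, 84% and 10% of 50, against 11.1%, 9.03%, 9.28% and 5.14% of the windows of 6000 bp. All the occupied elements were Ty1 or Ty2.

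Ty1 is the largest family. Its elements had 58.3% of their length under peaks in Tfg1-HA replicate 1, 55.3% in Tfg1-HA replicate 2, 80.7% in Tfg1-K60,61R-HA replicate 1 and 5.47% in Tfg1-K60,61R-HA replicate 2. The Tfg1-HA lists were close to each other, and the Tfg1-K60,61R-HA lists lay on either side of both. Of the 31 elements, 19, 16, 30 and 0 were occupied in that order. Single copies ranged from 16.3% to 100% in Tfg1-HA replicate 1, from 6.25% to 100% in Tfg1-HA replicate 2, from 28.4% to 100% in Tfg1-K60,61R-HA replicate 1 and from 0% to 32.5% in Tfg1-K60,61R-HA replicate 2.

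Ty2 elements stood higher than Ty1 in 3 lists. They had 81.2%, 52.6%, 89.7% and 37.9% of their length under peaks in the same order of lists, and 12, 7, 12 and 5 of the 13 were occupied. In Tfg1-K60,61R-HA replicate 2 all 5 occupied elements were Ty2. Ty2 was below Ty1 in Tfg1-HA replicate 2 alone. Ty1 and Ty2 are close relatives that encode the same set of proteins.

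**Figure D1:**
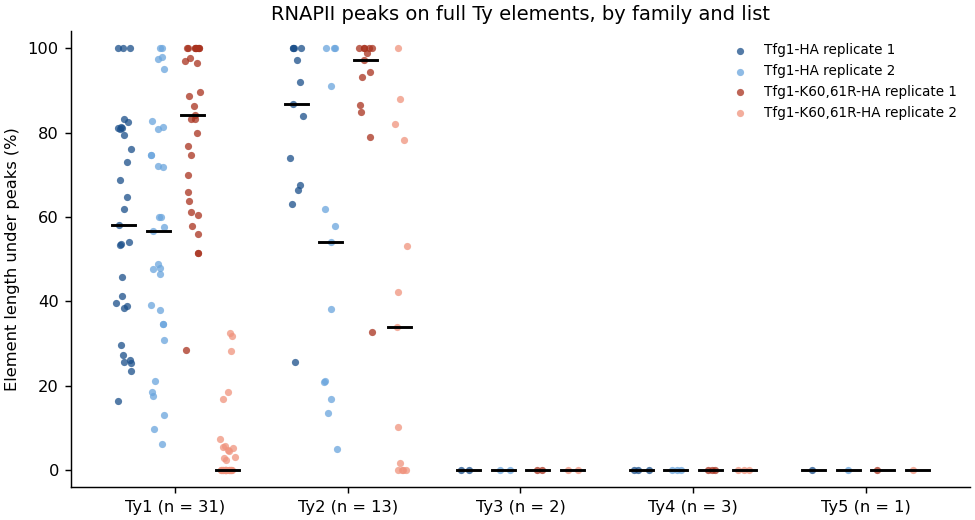
Percent of each full element's length under RNAPII peaks (vertical axis), by Ty family (horizontal axis) and list (colour); each point is 1 element and each bar is the median of a family in a list. Ty1 medians were 58.2%, 56.7%, 84.2% and 0% in the order of the legend, and the 6 Ty3, Ty4 and Ty5 elements sit at 0 in every list.

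The elements without a peak were YILWTy3-1 (chrIX:205220-210647) and YGRWTy3-1 (chrVII:707195-712545) of Ty3, YHLWTy4-1 (chrVIII:85539-91761), YJLWTy4-1 (chrX:197545-203768) and YPLCTy4-1 (chrXVI:436890-443112) of Ty4, and YCLWTy5-1 (chrIII:1179-4322), the only Ty5 element, near a telomere. Their flanks were also without peaks over the first 600 bp on either side in every list. No peak on these elements says that signal did not pass the threshold of the caller, not that RNAPII was absent. YPLCTy4-1 and YHLWTy4-1 are about as repeated as the Ty1 copies, with 3.20% and 5.31% unique stretches, and the Ty5 element has no repeated stretch.

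Peaks on elements were low, and in 3 of the lists they were wider than other peaks. The authors' fold ratio of a peak is the enrichment of the immunoprecipitate over a background estimated from input, as a mean along the peak. Its median over peaks that touch an element was 1.41 in Tfg1-HA replicate 1, 1.41 in Tfg1-HA replicate 2, 1.37 in Tfg1-K60,61R-HA replicate 1 and 1.34 in Tfg1-K60,61R-HA replicate 2, against 1.50, 1.48, 1.44 and 1.49 over all peaks. A fold of 2 or more was reached by 9 of 75, 4 of 75, 3 of 51 and 1 of 29 peaks on elements, or 12.0%, 5.33%, 5.88% and 3.45%. Among all peaks the shares were 28.5%, 27.8%, 24.9% and 23.6%. The lists differed in how the signal was cut into peaks. Peaks on elements had a median width of 1660 bp in Tfg1-HA replicate 1, 1550 bp in Tfg1-HA replicate 2, 5052 bp in Tfg1-K60,61R-HA replicate 1 and 1003 bp in Tfg1-K60,61R-HA replicate 2, against 1204, 1152, 1194 and 1100 bp over all peaks. An element was under a single peak in 15, 17, 33 and 19 cases. Of these peaks, 43, 47, 26 and 15 began and ended inside 1 element, and 7, 5, 13 and 1 spanned an element from end to end.

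Single elements kept a similar order from list to list. Across the 44 Ty1 and Ty2 elements, Spearman's rho of the percent covered ranged from 0.57, for Tfg1-K60,61R-HA replicate 1 with Tfg1-HA replicate 2, to 0.78, for Tfg1-K60,61R-HA replicate 1 with Tfg1-HA replicate 1. Elements share reads and lie in the same libraries, and they are not replicates, so these values only describe the lists. Across the 13 Ty2 elements, rho was 0.98 for the replicate 2 lists of the 2 strains and 0.71 for their replicate 1 lists. Within a labelled strain it was 0.62 for Tfg1-HA and 0.46 for Tfg1-K60,61R-HA, and between strains with unlike numbers it was 0.61 and 0.48. Ty1 did not show the same order of pairs. Across the 31 Ty1 elements, rho was 0.78 for the replicate 1 lists and 0.58 for the replicate 2 lists. Within a labelled strain the Ty1 values were 0.72 for Tfg1-HA and 0.64 for Tfg1-K60,61R-HA. Tfg1-K60,61R-HA replicate 1 was above both Tfg1-HA lists for 31 of 50 elements, and Tfg1-K60,61R-HA replicate 2 was below both for 43 of 50. The 6 elements touched in no list can be in neither count. The shares of windows with these orders were not taken, so the counts have no background. Tfg1-K60,61R-HA replicate 2 also covered the least of the nuclear genome, 11.0%.

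**Figure D2:**
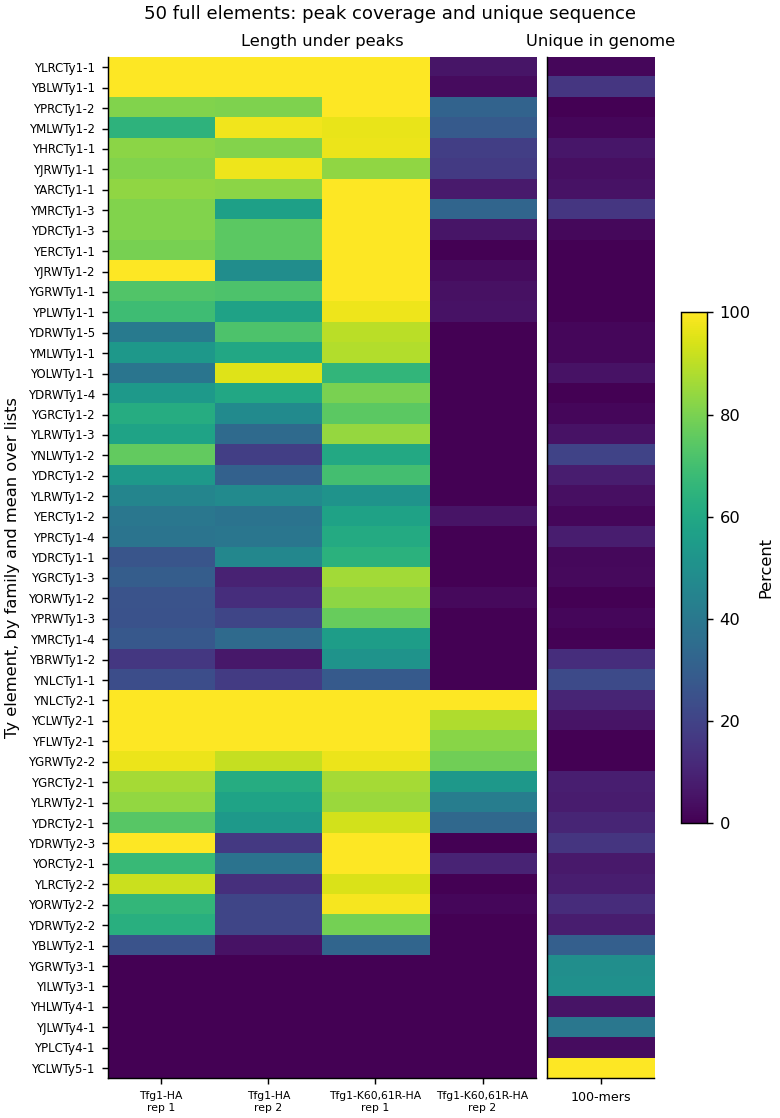
Percent of length under peaks in the 4 lists (left, columns) and percent of 100-base stretches that are unique in the genome (right) for each of the 50 elements (rows), ordered by family and by mean over the lists; both use the colour scale from 0 to 100%. YNLCTy2-1 is at 100% in every list, the Ty1 rows are dark in Tfg1-K60,61R-HA replicate 2 (0% to 32.5%), and the bottom 6 rows are at 0%.

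The elements most fully covered were Ty2. YNLCTy2-1 (chrXIV:562033-567992) lay under peaks over 100% of its length in every list, with an authors' fold of 2.52, 1.83, 2.65 and 1.47 in the order of the lists. The fold was higher in the replicate 1 list of either strain. YCLWTy2-1 (chrIII:84811-90769), next to LEU2, a gene of leucine synthesis, was at 100%, 100%, 100% and 87.9% with folds of 2.69, 1.99, 2.64 and 1.65. In the lists other than Tfg1-K60,61R-HA replicate 2, a single peak of 8585 to 8597 bp lay over both this element and LEU2. Fold is a mean over the whole peak, so the folds of YCLWTy2-1 in those lists mix LEU2 with the element. YFLWTy2-1 (chrVI:137913-143871) was at 100%, 100%, 100% and 82.0% with folds of 2.17, 1.62, 2.17 and 1.36. The pattern of these 3 copies was the same, with Tfg1-K60,61R-HA replicate 2 the lowest in fold.

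YGRWTy2-2 (chrVII:811447-817397) was covered over 97.2%, 91.1%, 97.1% and 78.2% of its length. YGRCTy2-1 (chrVII:568740-574700) followed at 86.6%, 61.9%, 86.6% and 53.1%. These 5 elements, 10% of 50, were the ones occupied in all 4 lists, and that share was not taken over windows. YLRWTy2-1 (chrXII:941192-947150) reached 83.8%, 57.9%, 84.8% and 42.3% and so fell short in the last list alone. For these 6 Ty2 copies, some of them at 100% in both, the replicate 1 lists of the 2 strains were within 1 percentage point of each other. That did not hold for the whole family. Over the 13 Ty2 elements, Tfg1-K60,61R-HA replicate 1 was above Tfg1-HA replicate 1 in 7, below it in 2 and equal in 4. The less covered YORWTy2-2, named after the values were seen, stood at 98.7% against 66.4%.

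Among Ty1 copies the highest were YLRCTy1-1 (chrXII:475976-481897) and YBLWTy1-1 (chrII:221037-226952), each covered from end to end in 3 lists and over 5.49% and 2.92% in Tfg1-K60,61R-HA replicate 2. YPRCTy1-2 (chrXVI:804645-810562), beside the ammonium permease gene MEP3, was at 81.0%, 80.8%, 100% and 31.8%. YMLWTy1-2 (chrXIII:196332-202234) was at 64.6%, 98.0%, 96.5% and 28.1%. YMRCTy1-3 (chrXIII:357005-362918) was at 80.9%, 56.7%, 100% and 32.5%, the highest Ty1 value in Tfg1-K60,61R-HA replicate 2. In each of these copies Tfg1-K60,61R-HA replicate 2 was the lowest list, and the Tfg1-HA lists were not apart from Tfg1-K60,61R-HA replicate 1 in one direction for all copies.

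The remaining Ty1 copies among the 15 most covered elements also had Tfg1-K60,61R-HA replicate 2 as the lowest list. YHRCTy1-1 (chrVIII:543610-549637) had 82.5%, 81.3%, 96.9% and 18.6% under peaks. YJRWTy1-1 (chrX:472463-478384), which shares an LTR with YJRWTy1-2, had 81.2%, 97.3%, 83.2% and 16.9%. YARCTy1-1 (chrI:160238-166162) had 83.3%, 82.8%, 100% and 7.27%. YDRCTy1-3 (chrIV:987150-992642) had 81.0%, 74.8%, 100% and 5.73%. Named after the values were seen, the least covered of the 44 Ty1 and Ty2 elements by mean over the lists were YNLCTy1-1 and YBLWTy2-1. The former stood at 23.5%, 17.5%, 28.4% and 0% and the latter at 25.6%, 4.88%, 32.8% and 0%. These were also the Ty1 and Ty2 copies with the most unique stretches of 100 bases, 22.4% and 30.2%.

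Coverage inside elements was therefore read by position as well. Across Ty2 elements, positions centred on unique stretches (7.19 kb in all) were covered over 57.1%, 26.3%, 69.4% and 14.0% in the order of the lists, and positions centred on repeated stretches (68.5 kb) over 84.2%, 55.6%, 92.5% and 40.8%. Across Ty1 elements the unique positions (8.76 kb) were covered over 54.0%, 39.3%, 61.0% and 11.1%, and the repeated positions (171.2 kb) over 58.9%, 56.5%, 82.4% and 4.98%. Repeated positions were higher in every list for Ty2 and in 3 of 4 for Ty1. The order of the 4 lists was the same at unique positions. These values count positions under called peaks, and a broad peak can extend from repeated onto unique positions. They therefore do not isolate reads that have a single place. Across copies, Spearman's rho of the percent covered with the share of unique stretches ranged from -0.60 to -0.26 over the 13 Ty2 and from -0.33 to -0.06 over the 31 Ty1 elements, which have base composition and reads in common. The part of shared reads in these differences was not tested.

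Along the element, the lists differed in shape. In the 29 Ty1 elements with 2 annotated LTRs, the internal region upstream of its midpoint was covered over 75.5% on average in Tfg1-HA replicate 1 and 74.5% in Tfg1-HA replicate 2, and the region downstream of it over 41.9% and 39.1%. In Tfg1-K60,61R-HA replicate 1 the 2 portions were nearly level at 82.5% and 84.9%. In Tfg1-K60,61R-HA replicate 2 they stood at 4.54% and 5.27%, and more of the 5′ LTR and the 3′ LTR (13.9% each) was covered than of the interior. The 5′ LTR was less covered than the interior in the other 3 lists, at 45.0%, 49.6% and 36.8%.

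In the 13 Ty2 elements the interior past the midpoint was covered as much as the interior before it. The upstream portion of the interior was covered over 81.2%, 53.4%, 91.9% and 39.0% and the downstream portion over 85.4%, 54.5%, 93.4% and 41.4%. The 5′ LTR was lower than the interior in every list, at 52.6%, 33.7%, 51.4% and 7.69%, and the 3′ LTR was in between at 78.3%, 45.8%, 81.8% and 26.6%. A dip near the middle was present here too. With the element cut into 20 equal bins, coverage went from 94.9%, 61.5%, 100% and 50.5% in bin 8 to 75.1%, 38.5%, 92.3% and 35.6% in bin 12.

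**Figure D3:**
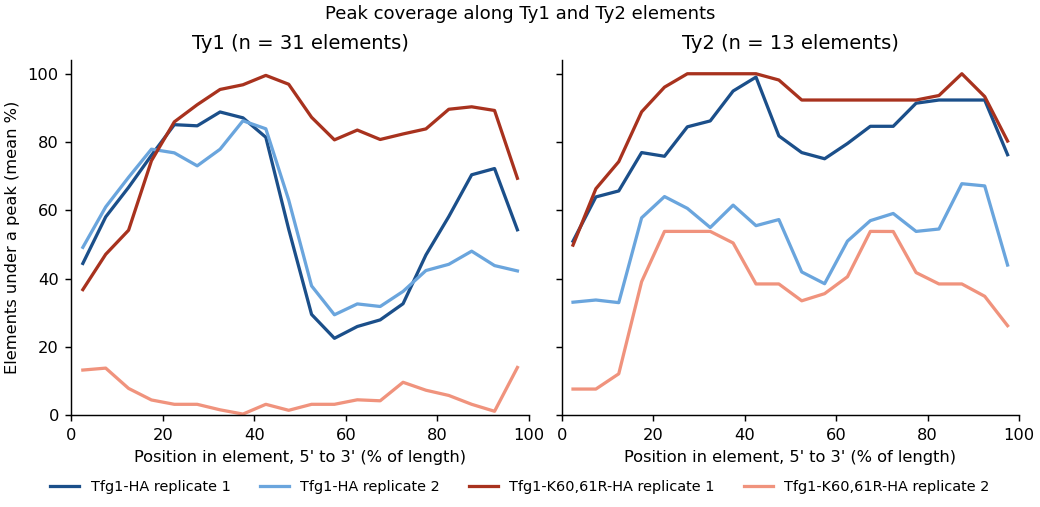
Mean percent of Ty1 (left) and Ty2 (right) elements under a peak (vertical axis) in 20 equal bins from the 5′ to the 3′ end (horizontal axis, percent of element length), 1 line per list. From bin 8 to bin 12 the Ty1 lines of Tfg1-HA drop from 87.1% and 86.2% to 22.6% and 29.4%, that of Tfg1-K60,61R-HA replicate 1 goes from 96.8% to 80.6%, and that of Tfg1-K60,61R-HA replicate 2 from 0.37% to 3.23%.

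ORFs inside elements gave the same picture. Of 61 ORFs in Ty1 elements, 40, 41, 48 and 1 were occupied, and of 20 in Ty2 elements, 16, 10, 17 and 4. None of the 3 ORFs in Ty3 and 5 in Ty4 elements was touched. Of the 5913 ORFs outside elements, 19.2%, 16.7%, 16.1% and 12.8% were occupied.

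Solo LTRs differed from full elements. Of 286, 44 were touched in Tfg1-HA replicate 1, 35 in Tfg1-HA replicate 2, 44 in Tfg1-K60,61R-HA replicate 1 and 17 in Tfg1-K60,61R-HA replicate 2, or 15.4%, 12.2%, 15.4% and 5.94%. Of windows of 300 bp, close to the median length of a solo LTR (321 bp), 21.1%, 18.4%, 18.5% and 13.2% were touched. Occupied solo LTRs numbered 31, 27, 35 and 10, or 10.8%, 9.44%, 12.2% and 3.50%, against 18.0%, 15.5%, 15.7% and 11.1% of windows. In each list the solo LTRs were thus below the background of windows, and 236 of them were touched in no list.

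Distance from a full element separated the solo LTRs. Of the 29 within 1000 bp of a Ty1 element, 14, 11, 15 and 5 were touched, and of the 20 within 1000 bp of a Ty2 element, 8, 7, 10 and 4. None of the 9 within 1000 bp of a Ty3, Ty4 or Ty5 element was touched. Of the 228 farther than 1000 bp from any element, 22, 17, 19 and 8 were touched, or 9.65%, 7.46%, 8.33% and 3.51%. By family, these distant touched LTRs were 16, 13, 11 and 4 of 162 Ty1 LTRs, 0, 0, 1 and 0 of 9 Ty2 LTRs and 6, 4, 7 and 4 of 29 Ty3 LTRs, with none of 22 Ty4 and 6 Ty5 LTRs. The share touched was higher in every list for the repeated LTRs among them, which was not tested. Of the 40 with under 50% unique stretches 17.5%, 17.5%, 22.5% and 7.5% were touched, and of the 181 with at least 50% unique stretches 8.29%, 5.52%, 5.52% and 2.76%. The part of shared reads in this was not tested either.

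**Figure D4:**
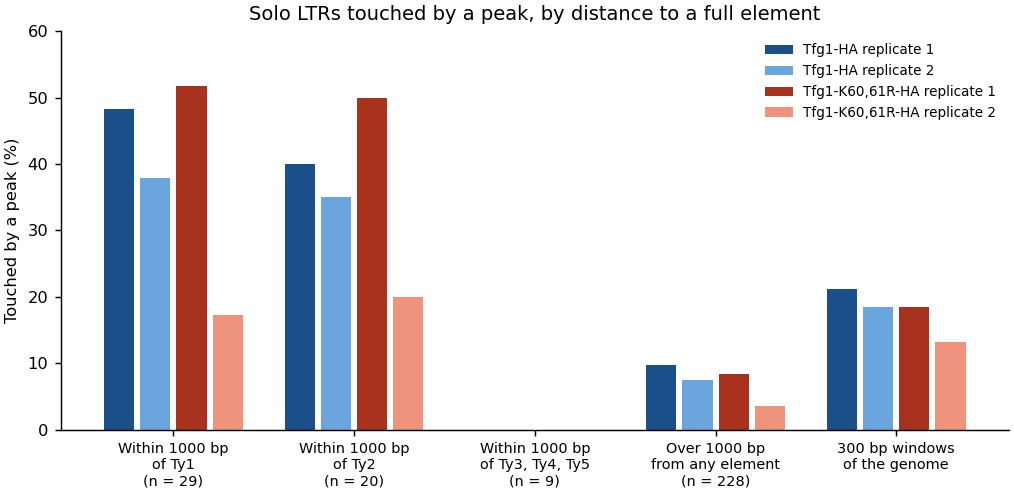
Percent of solo LTRs touched by a peak (vertical axis, bars from 0) by distance to a full element, beside the same percent for windows of 300 bp of the genome, 1 bar per list. Bars next to Ty1 and Ty2 elements reach 51.7% and 50% in Tfg1-K60,61R-HA replicate 1, those next to Ty3, Ty4 and Ty5 are at 0, and those of distant LTRs (3.51% to 9.65%) are below the windows (13.2% to 21.1%).

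Peaks on solo LTRs were mostly those of a neighbour. In Tfg1-HA replicate 1, 22 of the 44 touched LTRs shared their peak with a full element, 13 with an ORF at least 50% covered by the peak and no element, and 9 with neither. In the other lists the counts were 16, 13 and 6 of 35, then 23, 9 and 12 of 44, then 4, 7 and 6 of 17. The DNA around distant solo LTRs showed a dip in coverage. In the first 200 bp downstream of these LTRs 10.2%, 7.30%, 8.00% and 4.40% of the length lay under peaks, and at 2000 to 2200 bp 19.2%, 16.8%, 15.8% and 13.0%. Upstream, the values were 7.53%, 5.92%, 6.62% and 3.64% in the first 200 bp and 15.1%, 13.9%, 15.3% and 9.37% at 2000 to 2200 bp. Of the 286 solo LTRs, 222 lay within 1000 bp of a tRNA gene, which RNA polymerase III transcribes.

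**Figure D5:**
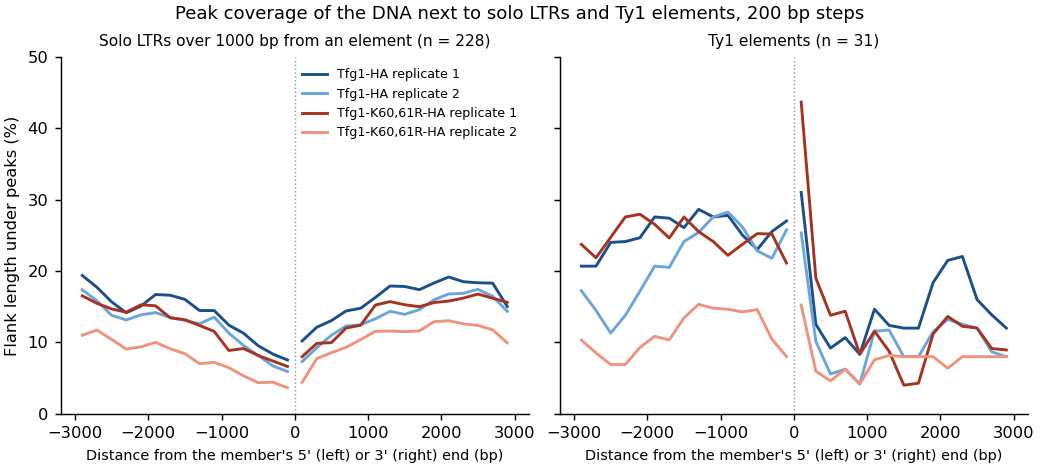
Percent of flanking DNA under peaks (vertical axis) in steps of 200 bp by distance from the 5′ end (left of 0) and the 3′ end (right of 0), outside any member, for solo LTRs over 1000 bp from an element and for Ty1 elements, 1 line per list. Lines fall towards the solo LTRs from both sides, and beyond the 3′ end of Ty1 elements they fall from 31.0%, 25.4%, 43.7% and 15.2% in the first step to 12.5%, 10.1%, 19% and 5.96% in the next.

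There were 8 solo LTRs occupied in all 4 lists, 2.80% of 286. The share of windows occupied in all 4 lists was not taken, so this count has no background. A pair of Ty3 LTRs on chromosome XIV (chrXIV:546423-546714 and chrXIV:546738-547077) lay wholly under 1 peak in every list, with folds of 1.57, 1.68, 1.41 and 1.45. That peak, 1934 to 2045 bp wide, also covered YIP3, a membrane protein gene of vesicle traffic. The second of these LTRs is the one printed above, which differs at 1 base from the LTR of YGRWTy3-1, an element under no peak. Of its stretches 21.6% were unique, against 100% for the first LTR of the pair. The printed Ty1 LTR of chromosome IV, 232 bp from TMN2, was covered over 100%, 100%, 100% and 92.1%, by peaks of 979, 871, 777 and 284 bp that covered no ORF over 50%. Its fold was 2.12 and 2.14 for Tfg1-HA against 1.55 and 1.37 for Tfg1-K60,61R-HA, so both Tfg1-HA lists stood above both others, as they did for the pair beside YIP3.

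The others lay beside covered neighbours. On chromosome XII a Ty1 LTR (chrXII:657449-657767) was covered over 100% in every list and a Ty3 LTR (chrXII:657022-657365) over 100%, 100%, 100% and 62.5%, by a peak that in 3 lists reached HSP60, a mitochondrial chaperonin gene. A Ty3 LTR on chromosome V (chrV:434631-434971) was covered over 100%, 80.9%, 95.0% and 81.5% by the peak of GLC7, which encodes protein phosphatase 1. A Ty1 LTR of 76 bp (chrVI:143872-143947) adjoins YFLWTy2-1 and was fully covered in all lists. A Ty1 LTR near YCLWTy2-1 (chrIII:84069-84294) was covered over 75.2%, 68.1%, 69.9% and 65.0%. A further 3 solo LTRs were among the 10 most covered, the Ty1 LTRs at chrIII:84295-84626, chrII:220895-221036 and chrIII:82700-83036, each at 100% in 3 lists and at 38.0%, 23.9% and 14.5% in Tfg1-K60,61R-HA replicate 2.

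The design compared Tfg1-K60,61R-HA with Tfg1-HA. Over all members, the length under peaks was 47.7% and 40.0% for Tfg1-HA, a mean of 43.8 ± 5.45 (SD, n = 2), against 60.8% and 11.3% for Tfg1-K60,61R-HA, a mean of 36.0 ± 35.0 (SD, n = 2). The difference of -7.82 percentage points was smaller than the spread within Tfg1-K60,61R-HA (exact permutation p = 1, two-sided). Members touched were 88 and 79 against 88 and 40, a difference of -19.5 (exact permutation p = 1), and members occupied were 62 and 50 against 77 and 15, a difference of -10 (exact permutation p = 1). For elements alone the difference in length covered was -9.39 percentage points and for solo LTRs alone -2.01 (exact permutation p = 1 for both). The 2 lists labelled Tfg1-K60,61R-HA lay on either side of both Tfg1-HA lists in length covered and in members occupied. Once Tfg1-K60,61R-HA replicate 2 was left out, the difference in length turned to 16.9 percentage points, in members touched to 4.5 and in members occupied to 21. Without Tfg1-K60,61R-HA replicate 1 the differences were -32.6 percentage points, -43.5 and -41. With the doubtful labels exchanged, which was tried once the values had been seen, the groups did not overlap. Length covered was then 47.7% and 60.8% against 40.0% and 11.3%, a difference of -28.6 percentage points, members touched were 88 and 88 against 79 and 40, a difference of -28.5, and members occupied were 62 and 77 against 50 and 15, a difference of -37. The exact permutation p was 0.333 for each, the smallest that 2 lists against 2 allow. With the labels as deposited the groups overlap, and with the labels exchanged they do not, so the comparison of the strains depends on labels that these lists leave in doubt.

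Members with a peak in both lists of 1 strain and in neither of the other were few. No element showed that pattern in either direction. Only 3 solo LTRs, 1.05% of 286, were touched in both Tfg1-HA lists and in no Tfg1-K60,61R-HA list, against 1.81% of windows of 300 bp. None was touched in both Tfg1-K60,61R-HA lists alone, against 0.114% of windows. The 3 were Ty1 LTRs. The LTR at chrV:99490-99664 was fully covered in both Tfg1-HA lists by a peak of fold 2.15 and 2.14 over SNU13, a small ribonucleoprotein gene, and VMA3, a subunit gene of the vacuolar proton pump. The LTR at chrXV:18302-18561 was fully covered with folds of 1.50 and 1.53, and that at chrX:422601-422887 over 55.4% and 54.7% with folds of 1.52 and 1.36.

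The labelled groups were also compared member by member. In percent covered, 7 of 286 solo LTRs (2.45%) had both Tfg1-HA lists above both others and 2 (0.699%) the reverse, against 3.99% and 0.395% of windows of 300 bp. No element was apart in either direction, against 27.8% and 2.34% of windows of 6000 bp. In fold, among the 15 solo LTRs touched in all 4 lists 6 had both Tfg1-HA lists above both others and 0 the reverse, or 40% and 0%, against 61.4% and 3.78% of windows of 300 bp touched in all 4 lists. Of the 23 elements touched in all 4 lists 8 had both Tfg1-HA lists above and 1 had both below, or 34.8% and 4.35%, against 58.2% and 3.86% of windows of 6000 bp touched in all 4 lists. These shares were not tested, and the doubt about the labels holds for them too.

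The 4 solo LTRs with a fold above 5 in any list were picked after the values were seen, and their peaks covered strongly bound genes. The highest fold, 9.86, was that of a Ty3 LTR (chrXII:373999-374338) fully covered in Tfg1-K60,61R-HA replicate 1 alone, by a peak over CCW12, which encodes a cell wall protein, and 4 other ORFs. The Ty1 LTR at chrXI:513532-513846 lay under the peak of GAP1, the general amino acid permease, with folds of 9.34 and 7.83 for Tfg1-HA, under a separate peak of 486 bp and fold 1.59 (94.6% covered) in Tfg1-K60,61R-HA replicate 1, and under none in Tfg1-K60,61R-HA replicate 2. The Ty1 LTR at chrIII:124134-124465 lay under the peak of CIT2, the peroxisomal citrate synthase, with folds of 6.96, 4.22 and 9.05 and under none in Tfg1-K60,61R-HA replicate 2. The Ty1 LTR at chrXI:162831-163169 was touched by the peak of GPM1, a glycolytic phosphoglycerate mutase, over 15.3%, 10.6%, 20.6% and 6.49% of its length, with folds of 8.12, 8.40, 6.54 and 6.37. Fold is a mean over the whole peak, so these values describe the gene more than the LTR.

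Genes that act on Ty elements were taken from a list of 30 that all matched the annotation. Of these, 8, 5, 6 and 3 were occupied in the order of the lists, 26.7%, 16.7%, 20% and 10%, beside 19.2%, 16.7%, 16.1% and 12.8% of the ORFs outside elements, shares near that background. Among 21 genes of Ty1 transcription 6, 3, 4 and 3 were occupied. TYE7, GCR1 and GCN4, which encode activators bound at Ty1, were covered over 100% in every list. TEC1 and STE12, the activators that bind the filamentation element of Ty1, were at 0% in every list. MCM1 was covered over 97.7% and SPT15, the gene of the TATA-binding protein, over 100%, in Tfg1-HA replicate 1 alone. FUS3, a kinase that restrains Ty1, was covered over 96.7% in Tfg1-K60,61R-HA replicate 1 alone. Of the 5 genes of RNA decay and processing 2, 2, 2 and 0 were occupied. LSM1 and DHH1, both of the mRNA decapping pathway, were at 100% and between 70.6% and 71.1% in 3 lists and at 0% in Tfg1-K60,61R-HA replicate 2. None of the 4 integration partners, RPC40 for Ty1, BRF1 and BDP1 for Ty3 and SIR4 for Ty5, was occupied in any list.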

How the data were processed

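RNAPII ChIP-seq was performed in 2 strains with 2 immunoprecipitated and 2 input libraries each, or 8 libraries in 4 groups. Reads were trimmed by the authors and aligned to sacCer3 with Bowtie2 2.3.5.1, and broad peaks were called with MACS2 2.2.7.1 in each immunoprecipitated library against input, without pooling. The submitters' processing notes name both tools and the build. The deposited lists give for each peak a fold ratio of immunoprecipitate over background and −log10 p-values and q-values, made by the authors. They hold no counts, so the depth that each library reached, and the precision it gives, is unknown. The study's own test over reads could not be run.

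Peak coordinates were checked against the chromosome lengths of the R64 reference, and all fell within them. Rows of Tfg1-K60,61R-HA replicate 1 that repeated Tfg1-K60,61R-HA replicate 2 (894 of 1992) were removed. Members were the annotated Ty elements and LTRs. They were called touched at 1 bp and occupied at 50% of their length under peaks, and the fold of a member is the authors' fold over its peaks, weighted by overlap. Uniqueness was counted over stretches of 50, 100 and 250 bases. Those of 100 are given, with medians over 250 for the elements of Ty1 to Ty4. Lists were grouped by their labels, and group means were tested with a two-sided exact permutation over lists. The study describes the replicates as independent and prepared from cultures. The other values are descriptions with no test, since members are not replicates.

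Elements named in the text were the 15 of highest mean percent covered, the elements of Ty3, Ty4 and Ty5, and the elements occupied in all 4 lists. Solo LTRs named were the 10 of highest mean percent covered, those occupied in all 4 lists and those touched in both lists of 1 strain alone, with exceptions stated where they occur. The members and lists were chosen with earlier results of these data known. Alternatives were a fold of at least 2, a −log10 q-value of at least 2, equal numbers of peaks, unique members only, repeated rows kept, other overlap thresholds, each list left out, a replicate block and, added after seeing the data, the doubtful labels exchanged. Scripts ran in Python 3.11.15 with numpy 2.4.6 and scipy 1.17.1 and were tested on simulated data.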

Additional observations from a re-analysis of the deposited data

How the results depend on the processing

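The 3 group differences (Tfg1-K60,61R-HA minus Tfg1-HA, over all members) were recomputed under the alternatives, which gave 41 values. The direction was kept in 38 and reversed in 3, and the smallest exact permutation p was 0.333, the smallest that 2 against 2 allows. Some of the 38 could not differ. The replicate block must give the main differences, and how LTRs are joined to elements leaves the length covered as it was. Those values therefore say nothing about direction. For the block, p came from sign changes of its pairs and cannot be below 0.5. The 3 reversals came without Tfg1-K60,61R-HA replicate 2, at 16.9 percentage points of length covered, 4.5 members touched and 21 members occupied, and the cause was not tested. Leaving out each list in turn gave -32.6 to 16.9 percentage points, -43.5 to 4.5 members touched and -41 to 21 members occupied.

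Counts moved by over 1.5 times under some settings. With peaks of fold 2 or more only, members touched fell from 88, 79, 88 and 40 to 26, 15, 13 and 2 and members occupied from 62, 50, 77 and 15 to 17, 8, 10 and 0 (Tfg1-HA replicates 1 and 2, then Tfg1-K60,61R-HA replicates 1 and 2), and length covered to 10.6%, 2.50%, 5.32% and 0.0326%. Among the 222 members at least 50% unique, 28, 20, 26 and 10 were touched and 18, 15, 20 and 7 occupied, with 6.20%, 4.95%, 6.72% and 2.32% of their length covered. Occupied members were 42, 33, 58 and 10 at 80% of the length and 79, 67, 85 and 23 at 20%. With the 894 strongest peaks of each list the difference in length covered was -0.903 percentage points.

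The replicate block (Tfg1-K60,61R-HA minus Tfg1-HA within each number) gave the same -7.82 percentage points, -19.5 members touched and -10 members occupied. The differences were 13.1 percentage points for number 1 and -28.7 for number 2. The correlation of the deviations of same-numbered lists was 0.04 over the 94 members touched in any list, 0.20 over the 44 Ty1 and Ty2 elements and 0.87 over the 13 Ty2 elements alone. No label states a shared culture or day for a number, so the fit without the block was kept. Counting only LTRs wholly inside an element with it, an alternative chosen after seeing the data, gave 338 members and the same differences. With the 2 doubtful labels exchanged, also chosen after seeing the data, the differences were -28.6 percentage points, -28.5 members touched and -37 members occupied. Reads shared between copies, the unknown depth reached by each library and the doubtful labels limit every value.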
